A study of Mus musculus with 6 samples.

Results

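The genes described here mark or build lymphatic vessels: Prox1, Flt4, Pdpn, Lyve1, Reln, Vegfc, Figf (the older symbol, used on the array, for Vegfd) and Mmrn1. They were found as every non-control probe whose gene name on the array equals one of these symbols, which gave 10 probes for 8 genes out of 55681 probes and 34844 gene names. Each probe was kept separate, since Pdpn and Mmrn1 have 2 probes each and these need not report the same transcripts. The samples were inguinal fat, a subcutaneous depot, from male C57BL/6J mice, hybridised as cRNA to 6 single-colour mouse expression arrays. The DIO_CR_WR group (3 arrays) came from mice that, from 2 months of age, ate a high-fat diet (60% of energy as fat) for 1 month, were then calorie restricted for about 3 weeks down to the weight of chow-fed mice of even age, and then regained weight with free access to the fatty diet. The DIO group (3 arrays), by its titles, came from the comparison mice, which stayed on chow until the weights met and then ate the same fatty diet freely over the last period, so that both groups were eating that diet when the fat was taken. The protocol text gives these groups other names: it calls the regain mice DIO and the comparison mice CTR. Groups here follow the sample titles. The labelled ages were 6, 7 and 8 months in DIO and 9, 10 and 11 months in DIO_CR_WR, so labelled age and group cannot be told apart. These labels rise by 1 month from sample to sample while the protocol speaks of mice of even age, and whether they are true ages is not known. The labels do not say whether each sample was 1 mouse, and p-values measure only the spread between these samples.

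Lymphatic vessels drain fluid, lipids and immune cells from tissue. Their endothelial cells take on lymphatic identity under the transcription factor PROX1, and they sprout when the ligands VEGF-C and VEGF-D, which are cut to their active forms outside the cell, bind the receptor tyrosine kinase VEGFR-3 (Flt4). Lymphatic capillaries carry the hyaluronan receptor LYVE1 and the mucin-like glycoprotein podoplanin (Pdpn), whose binding to the platelet receptor CLEC-2 keeps blood and lymphatic vessels apart. Among the vessel cells of adult tissue PROX1 and VEGFR-3 are mostly lymphatic, whereas LYVE1 is also found on tissue macrophages, and podoplanin on fibroblastic stroma, mesothelium and keratinocytes. In fat, lymphatics run through the depot and, in the inguinal pad, around an embedded lymph node.

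The probes are 60 bases long, and their sequences show which stretch of a transcript each value reports. The Pdpn pair is shown because its probes gave different group differences, the Prox1, Reln and Lyve1 probes because their groups did not overlap in level. Coordinates are those of the array files (mouse build mm9), all on the minus strand, and gene models of that build were not used here. The first line is the whole Pdpn probe A_55_P2064962, whose bases are spread over an interval of 818 bases, chr4:142858329-142859146, so that it crosses a splice junction. Read from its first base it has no stop codon before the last one, which is in capitals. The second line gives the last 30 bases of Pdpn probe A_55_P1961395, chr4:142857339-142857398, which lies downstream of the first in the direction of transcription. Its capitals mark the letters AATAAA, the usual poly(A) signal. The Reln probe is printed whole, from chr5:21404915-21404974. The last 30 bases are given for Prox1, chr1:191945785-191945844, and for Lyve1, chr7:117994171-117994230.
Pdpn stop-codon probe: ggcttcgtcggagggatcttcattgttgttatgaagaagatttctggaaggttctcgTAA
Pdpn downstream probe: catcttttcaAATAAAacctgattgtgtcc
Reln: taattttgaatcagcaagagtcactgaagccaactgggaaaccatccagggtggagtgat
Prox1: acgggtgcagtaaacagcactgttcactct
Lyve1: tagctctcattcttttccagcaagaagaac

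The arrays differed in brightness and in background. DIO arrays had a 75th percentile of processed intensity between 4605 and 4991 and 69.1% to 79.7% of their probes well above background. DIO_CR_WR arrays had one between 6050 and 7126 and 52.9% to 66.7% of probes well above background. No probe was saturated. Levels below are log2 processed intensity minus the array's own 75th percentile, and a difference is DIO_CR_WR minus DIO on that scale. The DIO_CR_WR arrays and DIO replicate 1 were on 1 slide and DIO replicates 2 and 3 on another, so each difference was also fitted with the slide as a block. The difference in that fit is the mean of the DIO_CR_WR arrays minus DIO replicate 1 alone. DIO replicates 2 and 3 enter only its error. All 8 adipocyte markers (Adipoq, Plin1 and others) were well above background on all 6 arrays.

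No lymphatic vessel gene passed the test. Of the 10 probes, 9 were well above background on at least 3 arrays and were tested, and 6 of these were so on all 6 arrays. With limma and Benjamini-Hochberg adjustment over 38460 tested probes, 0 of the 9 had an adjusted p under 0.05, against a background of 0% of all probes. The lowest adjusted p was 0.123 among the 9 and 0.119 over all probes. At an unadjusted p under 0.05, 1 probe was higher in DIO_CR_WR (Pdpn, stop-codon probe) and 2 were lower (Prox1 and Reln), against 5.34% higher and 20.8% lower of all tested probes. The groups did not overlap, with DIO_CR_WR higher, for 3 probes (both of Pdpn, and Lyve1) against 7.29% of all probes, and with DIO_CR_WR lower for 2 (Prox1 and Reln) against 25.6%. Prox1 and Reln were detected mainly in DIO and passed the detection filter through it, so nothing is read from their count. The split between directions over all probes depended on the scaling: at an unadjusted p under 0.05, 2055 probes were higher and 7986 lower with the 75th percentile, but 7985 higher and 1131 lower when the arrays were scaled to their spike-in RNA. The median difference over all tested probes was accordingly -0.19 and 0.31, and each difference below has to be read against that shift. Over the 9 probes the median was 0.11 with the 75th percentile and 0.61 with the spike-in RNA.

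**Figure D1:**
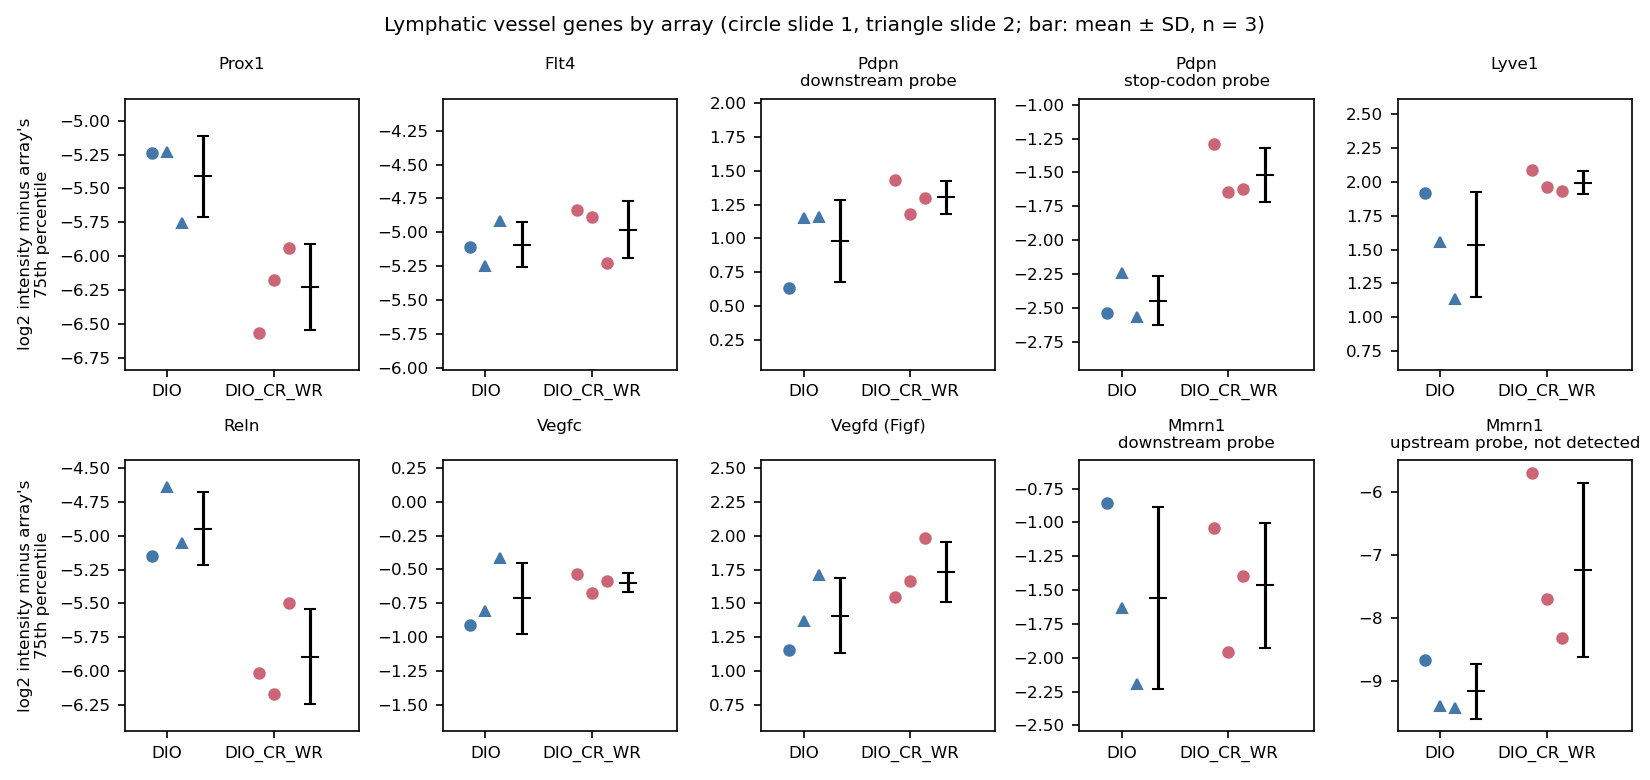
Level of each lymphatic vessel probe on every array, as log2 processed intensity minus the array's 75th percentile (y axis, own range in each panel), for DIO (blue) and DIO_CR_WR (red), with circles for slide 1, triangles for slide 2 and bars for mean ± SD (n = 3). The groups stand apart for both Pdpn probes and Lyve1, with DIO_CR_WR higher, and for Prox1 and Reln, with DIO_CR_WR lower; the upstream Mmrn1 probe was not well above background on any array.

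Prox1 (probe A_55_P2048751), the regulator that sets and keeps lymphatic identity, was close to background. Its processed intensities were 132, 126 and 85 on the DIO arrays and 75, 95 and 99 on the DIO_CR_WR arrays, and it stood well above background on 3 of 3 DIO arrays but on 1 of 3 DIO_CR_WR arrays. The raw intensities of the groups therefore overlapped. On the scaled level they did not, at -5.24, -5.23 and -5.75 in DIO and -6.57, -6.17 and -5.94 in DIO_CR_WR. The difference in measured signal was -0.82 ± 0.24 (SE of limma's model, n = 3 per group, adjusted p = 0.138), and no fold is given, since 2 of the DIO_CR_WR values are not well above background. The size depended on the processing: it was -0.32 with spike-in scaling, -0.37 with normexp background correction, -0.98 with the slide as a block and -1.20 with quantile normalization (adjusted p = 0.514, 0.201, 0.482 and 0.37). Prox1 entered the test through its DIO arrays, and the 2633 tested probes that shared its detection (3 DIO arrays and 1 DIO_CR_WR array) had a median difference of -0.64, with 27.3% of them non-overlapping and lower. In bulk tissue, fewer cells of a type and less RNA per cell cannot be told apart, which applies to every gene here.

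Flt4 (probe A_51_P179531) encodes VEGFR-3, the receptor that the lymphatic growth factors act through. Its levels were -5.11, -5.25 and -4.92 in DIO and -4.84, -4.89 and -5.22 in DIO_CR_WR, at intensities of 124 to 152 and 162 to 249. It was well above background on all 3 DIO arrays and on 2 of 3 DIO_CR_WR arrays. The groups overlapped, and the difference of 0.11 ± 0.18 (95% interval -0.33 to 0.55, limma adjusted p = 0.729) leaves room for a change of either sign.

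The probes of both ligands were well above background on all 6 arrays. Vegfc (probe A_51_P433870), the main lymphangiogenic factor, was at -0.91, -0.81 and -0.41 in DIO and at -0.53, -0.67 and -0.59 in DIO_CR_WR. The DIO_CR_WR values lay inside the DIO range, with a difference of 0.11 ± 0.18 (95% interval -0.33 to 0.56, limma adjusted p = 0.722). The spread among DIO arrays (SD 0.26) exceeded that among DIO_CR_WR arrays (SD 0.072). Within slide 1, all 3 DIO_CR_WR arrays were above the DIO array.

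Figf (probe A_51_P117739), the gene of VEGF-D, was printed as 10 spots of 1 sequence on each array, so its measurement error can be seen directly. After spots marked as outliers by the scanner software were left out (2 spots on DIO replicate 1, 1 on DIO replicate 3 and 2 on DIO_CR_WR replicate 1), the SD over spots ranged from 0.042 to 0.074 log2 units in DIO and from 0.053 to 0.17 in DIO_CR_WR. The SD between arrays of a group was larger, at 0.28 in DIO and 0.22 in DIO_CR_WR. The levels were 1.16, 1.37 and 1.71 in DIO and 1.55, 1.67 and 1.98 in DIO_CR_WR. DIO replicate 3 stood above 2 of the DIO_CR_WR arrays, so the groups overlapped. The difference was 0.32 ± 0.21 (95% interval -0.19 to 0.83, limma adjusted p = 0.363), and 0.57 ± 0.26 with the slide as a block (adjusted p = 0.527).

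Pdpn, the lymphatic and stromal glycoprotein that binds CLEC-2, had the largest difference with DIO_CR_WR higher among the tested lymphatic probes. At the stop-codon probe the processed intensities were 861, 999 and 778 in DIO and 2921, 2191 and 1961 in DIO_CR_WR, with scaled levels of -2.54, -2.24 and -2.56 against -1.29, -1.65 and -1.63. Every DIO_CR_WR array lay above every DIO array, within slide 1 and across slides. The difference was 0.93 ± 0.18 (SE, n = 3 per group, 95% interval 0.49 to 1.37), 1.90-fold higher, which did not pass the test (limma unadjusted p = 0.00188, adjusted p = 0.123). It ranked 581 of 38460 tested probes by p. Across 18 alternative settings that tested this probe the difference stayed between 0.81 and 1.43, and its adjusted p between 0.0492 and 0.447. The lowest adjusted p, 0.0492, came from leaving out DIO replicate 1, the only DIO array on slide 1, after which slide and group cannot be told apart and 4510 probes of the whole array passed.

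The downstream Pdpn probe gave a smaller difference. Its intensities were 7737, 10508 and 10280 in DIO and 19202, 15553 and 14887 in DIO_CR_WR. The scaled levels, 0.63, 1.15 and 1.16 against 1.43, 1.18 and 1.30, did not overlap, but the gap between the nearest arrays was narrow. The difference was 0.32 ± 0.20 (95% interval -0.16 to 0.81, limma adjusted p = 0.339), 1.25-fold higher, and 0.67 ± 0.19 with the slide as a block (adjusted p = 0.467). The 2 probes can be set against each other inside each array, which removes the scaling between arrays. The stop-codon probe minus the downstream probe was -3.17, -3.40 and -3.72 in DIO and -2.72, -2.83 and -2.92 in DIO_CR_WR. The groups did not overlap: the mean was -3.43 ± 0.28 (SD, n = 3) in DIO and -2.82 ± 0.10 (SD, n = 3) in DIO_CR_WR. The pair is described because its values differed, and the inequality was not tested. It amounted to 0.61 log2 units over all arrays and 0.35 within slide 1, and the mean over both probes differed between the groups by 0.63 ± 0.17 (limma adjusted p = 0.133).

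**Figure D2:**
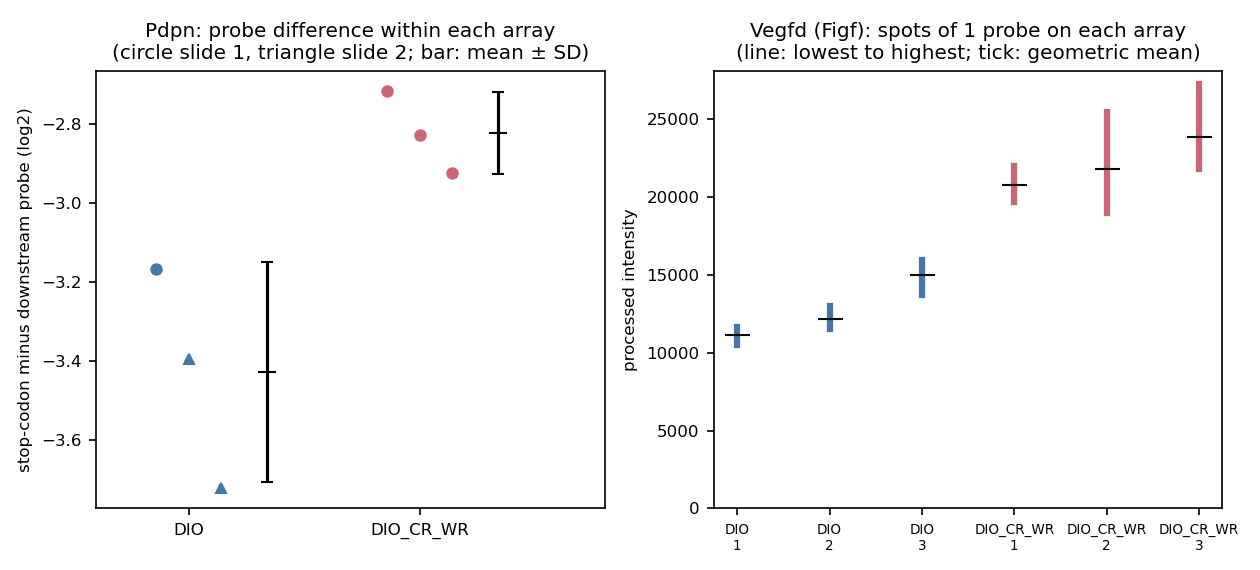
Left, the stop-codon Pdpn probe minus the downstream Pdpn probe on each array (y axis, log2), by group, with circles for slide 1, triangles for slide 2 and bars for mean ± SD (n = 3); the 3 DIO_CR_WR arrays lie between -2.92 and -2.72, above the DIO arrays at -3.72 to -3.17. Right, lowest to highest processed intensity (y axis, linear) of the spots of the Figf probe used on each array, with the geometric mean as a tick; the spots of DIO_CR_WR replicate 2 span 18972 to 25492, across the means of the other DIO_CR_WR arrays, and all DIO_CR_WR arrays are brighter than the DIO arrays before scaling.

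Lyve1 (probe A_52_P686785), the hyaluronan receptor of lymphatic capillaries and of some macrophages, was at 1.92, 1.56 and 1.14 in DIO and at 2.09, 1.96 and 1.93 in DIO_CR_WR. The DIO_CR_WR arrays were close to each other (SD 0.083) and all above the DIO arrays, which were spread out (SD 0.39). The difference was 0.46 ± 0.23 (95% interval -0.09 to 1.00, limma adjusted p = 0.246), 1.37-fold higher. It rested on the DIO arrays of the second slide: DIO replicate 1, which shared a slide with the DIO_CR_WR arrays, lay just under them, and with the slide as a block the difference was 0.08 ± 0.24 (adjusted p = 0.913). Markers of macrophages were measured beside it. The mean level of 11 macrophage genes was 0.92, 1.07 and 1.45 in DIO and 1.46, 1.44 and 1.495 in DIO_CR_WR. Of the 11 genes, 2 had an unadjusted p under 0.05 and were higher in DIO_CR_WR, 0 were lower, and 0 passed the adjusted test. Over all 26180 gene names, each by its brightest probe, 5.31% were called higher and 21% lower in this way. With spike-in scaling 7 of the 11 were higher, where 7985 of all 38460 tested probes were higher and 1131 lower. With the labelled age in the model 1 was higher and 1 lower. With the slide as a block 3 were higher, where 1707 of all tested probes were higher and 2165 lower. The list's median was then 0.51, against 0.39 in the reported fit. Mrc1, a receptor of resident macrophages, differed by 0.67 ± 0.15 (limma adjusted p = 0.125). Of the others, Folr2, Csf1r and C1qa differed by 0.006, 0.002 and 0.13. Mertk and Cd68 differed by -0.10 and -0.22, with 0.78 at the other Cd68 probe. Cd14, Emr1, Cd163, Timd4 and Fcgr1 differed by 0.39, 0.42, 0.57, 0.78 and 0.80. The part of macrophages in the Lyve1 value was not tested.

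Reln (probe A_66_P108810) encodes reelin, a secreted matrix glycoprotein that lymphatic endothelium of collecting vessels makes. Its intensities were 141, 189 and 139 in DIO and 111, 95 and 134 in DIO_CR_WR, near background, and it was well above background on 3 of 3 DIO arrays and 1 of 3 DIO_CR_WR arrays. The scaled levels were -5.15, -4.64 and -5.05 against -6.01, -6.17 and -5.50. All DIO_CR_WR arrays lay below all DIO arrays, here also in raw intensity, where the nearest arrays were at 134 and 139. The difference in measured signal was -0.95 ± 0.24 (limma adjusted p = 0.131), again given without a fold. It was -0.45 with spike-in scaling, -0.50 with normexp and -0.75 with the slide as a block (adjusted p = 0.285, 0.145 and 0.523). Like Prox1, Reln entered the test through DIO and shares the detection class whose median difference was -0.64. Of the probes in that class 27.3% were non-overlapping and lower.

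Mmrn1 encodes multimerin 1, a large glycoprotein of platelets and endothelium that is abundant in lymphatic endothelium. Its downstream probe (A_51_P423290, chr6:60938883-60938942, plus strand) varied most from array to array: -0.85, -1.63 and -2.19 in DIO (SD 0.67) and -1.04, -1.96 and -1.39 in DIO_CR_WR (SD 0.46). The groups overlapped widely, with a difference of 0.09 ± 0.39 (95% interval -0.85 to 1.04, limma adjusted p = 0.897) that turned to -0.61 with the slide as a block. The upstream probe (A_52_P126132, chr6:60896017-60896076) was not well above background on any array and was not tested.

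**Figure D3:**
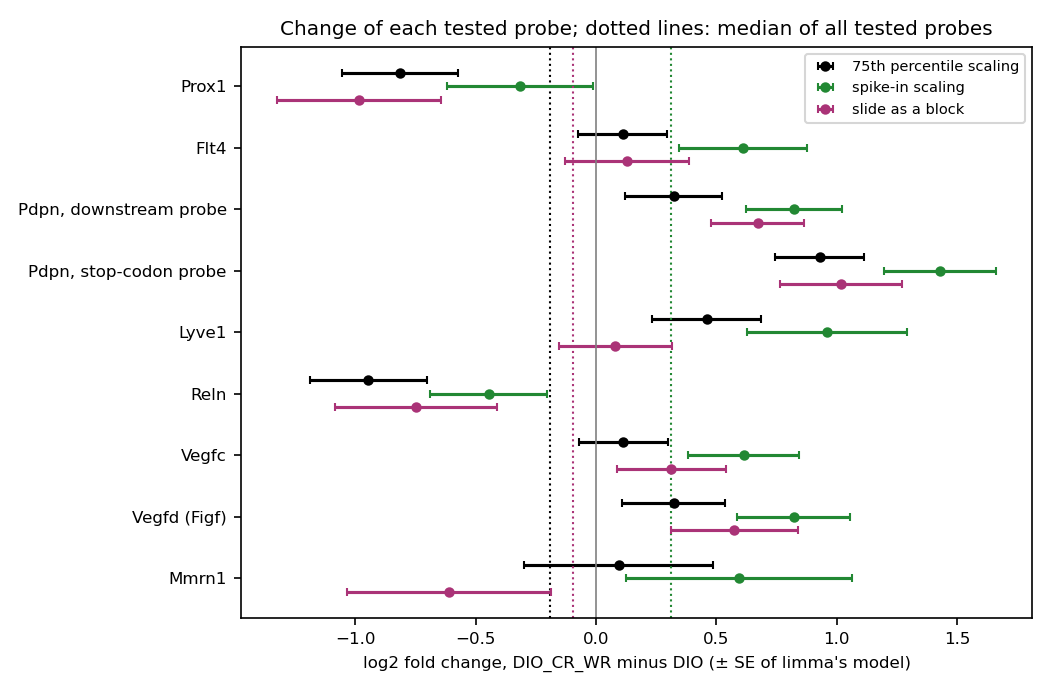
Difference of each tested lymphatic probe (x axis, log2, DIO_CR_WR minus DIO, ± SE of limma's model, n = 3 per group) with the 75th percentile scaling (black), with spike-in scaling (green) and with the slide as a block (purple); dotted lines mark the median of all tested probes in each fit, -0.19, 0.31 and -0.10. Prox1 and Reln lie left of the median line of each fit and both Pdpn probes right of it, while Mmrn1 changes sign and Lyve1 falls to 0.08 with the slide block. The distance of a probe to the line is the same by construction in the black and green fits.

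Relative to the median of all probes in the same fit, both Pdpn probes and Lyve1 stayed above it in every alternative setting that tested them. Flt4 and Vegfc also stayed above it, by 0.16 to 0.65 and by 0.11 to 0.41. Figf crossed it by 0.02 in the fit with the labelled age as a covariate, and Mmrn1 lay on either side. Prox1 and Reln lay below it, as did their detection class, and could not be tested within slide 1 alone or among probes detected on all 6 arrays.

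The other genes of the growth pathway held no gene that passed the test. Of 15 genes (other VEGF ligands and receptors, the VEGF-C processing genes, adrenomedullin and its receptor), 14 were tested: with an unadjusted p under 0.05, 2 were higher in DIO_CR_WR and 0 lower, and the median was 0.07. Over all gene names, each by its brightest probe, 5.31% were higher and 21% lower in this way, and the median was -0.20. With spike-in scaling 7 of the 14 were higher, where 7985 of all 38460 tested probes were higher and 1131 lower. The list's median was then 0.57, against 0.31 over all probes. Adm, which encodes the peptide adrenomedullin that promotes lymphatic growth, had the smallest p. Its levels were 0.41, 0.49 and 0.29 in DIO and 1.15, 1.73 and 1.54 in DIO_CR_WR. All DIO_CR_WR arrays were higher, by 1.08 ± 0.20 on average (limma adjusted p = 0.12), and by 0.87 to 1.58 over the alternatives, with an adjusted p of 0.0427 only among 5 arrays without DIO replicate 1. Ccbe1, the cofactor of VEGF-C cleavage, differed by 0.61 ± 0.19 at its brightest probe (limma adjusted p = 0.141) but by -0.27 and -0.12 at its other probes. Of the blood vessel receptors, Kdr differed by -0.32 ± 0.21 and Flt1 by -0.17 ± 0.15, with overlapping groups.

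Among 21 regulators of lymphatic identity and valves, 0 passed the adjusted test, 3 were higher and 1 lower by the unadjusted p, and the median was 0.18. The shares over all gene names in the reported fit, 5.31% higher and 21% lower, stand beside this count and those of the other lists below. They do not apply to counts in other settings. With spike-in scaling 12 were higher and 0 lower, with a median of 0.68. Over all 38460 tested probes, 7985 were higher and 1131 lower with that scaling, which stands beside each spike-in count here. The number higher was 6 without DIO replicate 1 and 0 without DIO_CR_WR replicate 1. Tbx1, a transcription factor that acts upstream of Flt4 in development, was at 1.92, 1.86 and 1.14 in DIO and 0.72, -0.20 and 1.00 in DIO_CR_WR. The groups did not overlap, as for 25.6% of all tested probes with DIO_CR_WR lower, and the difference was -1.13 ± 0.37 (limma adjusted p = 0.145). Which cells the Tbx1 signal came from was not tested. Efnb2, the ephrin ligand of valve formation, differed by 0.43 ± 0.15 (limma adjusted p = 0.15). The partners that set PROX1 expression, Sox18 and Nr2f2, differed by 0.25 ± 0.20 and 0.18 ± 0.18, with overlapping groups. Of 15 other lymphatic endothelial markers, Tbx1 among them again, 0 passed, 1 was higher and 3 lower by the unadjusted p, and the median was -0.12. Fgl2 was the higher one, at 0.48 ± 0.16 (limma adjusted p = 0.146). Clca1, among the lower ones, was at -0.37 by its brightest probe but at 1.24 by its other. Of 9 genes of platelets and of CLEC-2 signalling, 0 passed, 1 was higher and 3 lower by the unadjusted p, and the median was -0.29. Clec1b, among the lower ones, was at -0.39 by its brightest probe but at 0.04 and 0.20 by its others. Gp1bb, also among the lower ones, was at -0.78 ± 0.30 by its brightest probe (limma adjusted p = 0.174). Its other probes were at -0.86 and -0.84. Lcp2, the adaptor SLP-76 that acts downstream of CLEC-2 in platelets and is also found in other blood cells, differed by 0.93 ± 0.21 (limma adjusted p = 0.125). Gp6, a collagen receptor of platelets, was well above background on all DIO arrays and on no DIO_CR_WR array, and the detection limit of the latter allows no fold. It is 1 of the 3 called lower, and it passed the filter through DIO alone, as did 1833 probes with a median of -0.79, of which 56.8% were non-overlapping and lower; no lower level is read from it. With spike-in scaling the lists of other lymphatic markers and of platelets turned to medians of 0.38 and 0.21, against 0.31 over all probes, with 5 higher and 0 lower, and 4 higher and 1 lower.

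Several lymphatic genes are shared with other cells, so the markers of those cells are given for the same arrays. Their counts in the reported fit stand against 5.31% higher and 21% lower over all gene names by the unadjusted p. Blood endothelium (12 genes) had mean levels of 1.32 to 1.66 in DIO and 1.605 to 1.63 in DIO_CR_WR, with 3 genes higher and 0 lower by the unadjusted p, 0 past the adjusted test and a median of 0.09. The number higher was 7 with spike-in scaling, 2 with the slide as a block, and 0 without DIO replicate 2 or without any 1 of the DIO_CR_WR arrays. Over all 38460 tested probes, 7985 were higher with spike-in scaling and 1707 with the slide as a block. Among the 3, Gja5, was at 0.48 by its brightest probe but between -1.65 and -0.64 by its others. The others of the 3, Cdh5 and Pecam1, junction proteins of all vessels, differed by 0.54 ± 0.19 and 0.41 ± 0.15 (limma adjusted p = 0.155 and 0.167). Of the genes not called, Vwf, Robo4, Cldn5 and Egfl7 differed by -0.33, -0.14, -0.06 and -0.06. Sox17, Emcn, Eng, Plvap and Esam differed by 0.74, 0.14, 0.10, 0.08 and 0.02. Fibroblasts and progenitors (10 genes), which can carry podoplanin, ranged from 2.24 to 2.75 in DIO and 2.36 to 2.48 in DIO_CR_WR, with 2 higher by the unadjusted p, Pdgfra and Pdgfrb, 0 lower and 0 past the adjusted test. The median of the list was -0.19, and Cd34, Dpp4 and the collagen genes Col1a1 and Col3a1 were at -0.44, -0.46, -0.35 and -0.38. Lymph node stroma and B cells gave 7 tested genes of 10, and Cd79a and Glycam1 were among those not well above background on 3 arrays. Their mean level was -2.33 to -1.82 in DIO and -1.79 to -1.77 in DIO_CR_WR, without overlap but with a narrow gap between the nearest arrays. Ms4a1, well above background on 2 of 3 DIO arrays, ran from -6.58 to -2.80 over the arrays and weighs on that mean. Madcam1 was well above background on 2 of 3 DIO_CR_WR arrays. No direction is read from the mean of this list. Within that list the stromal chemokines Ccl19 and Cxcl13 differed by 0.86 ± 0.15 and 1.70 ± 0.39, while Chst4 of high endothelial venules and Cr2 of B cells and follicular dendritic cells differed by -1.04 ± 0.19 and -0.83 ± 0.21 (limma adjusted p = 0.119 to 0.131 for the 4 genes). The other tested Cr2 probe was at 0.32.

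Mesothelium and keratinocytes also carry podoplanin, but few of their markers were well measured. The mesothelial mean was -4.08 to -3.66 in DIO and -4.67 to -4.55 in DIO_CR_WR over 3 tested genes of 6, and Muc16, Upk3b and Wt1 failed the detection filter. Of the tested ones, Msln and Lrrn4 were well above background on 3 DIO arrays but on 1 and 2 DIO_CR_WR arrays. Krt19, well above background on all arrays, differed by -1.12 ± 0.27 (limma adjusted p = 0.128). By the unadjusted p 2 of the 3 were lower, against 21% of all gene names, and 0 with spike-in scaling. The median was -1.12, and -0.62 with spike-in scaling. The keratinocyte mean was -1.99 to -1.21 in DIO and -2.13 to -1.78 in DIO_CR_WR over 5 tested genes of 6, with a median difference of -0.46 that was 0.04 with spike-in scaling. Krt5 and Krt15 among them were detected on 3 DIO arrays but on 1 and 2 DIO_CR_WR arrays, so that no direction is read from either list. Skeletal muscle genes were present in this fat, with means of 4.14 to 4.39 in DIO and 3.40 to 3.91 in DIO_CR_WR. By the unadjusted p 3 of 6 were lower, against 21% of all gene names. With spike-in scaling 0 were lower by it, where 1131 of all 38460 tested probes were lower. The part that these cell types have in the Pdpn and other lymphatic values was not tested.

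**Figure D4:**
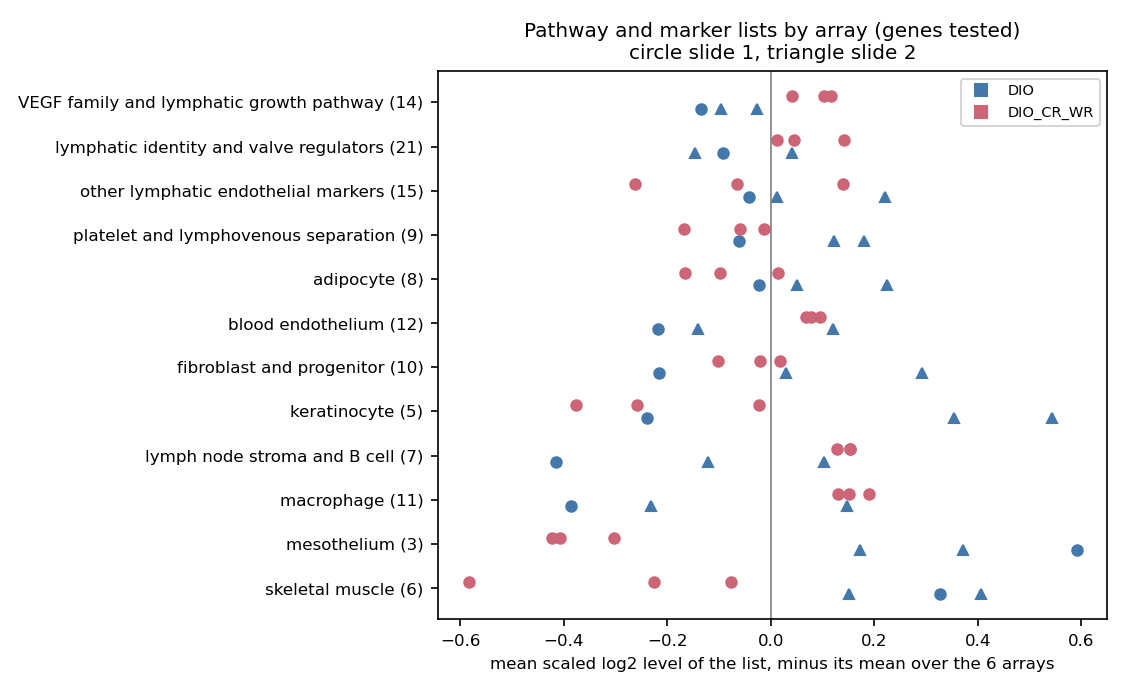
Mean scaled level of each pathway and marker list on every array, minus the list's mean over the 6 arrays (x axis, log2), for DIO (blue) and DIO_CR_WR (red), with circles for slide 1, triangles for slide 2 and the number of genes tested in brackets. The growth pathway list is higher on all DIO_CR_WR arrays. Its gene Calcrl is well above background on 2 of 3 DIO_CR_WR arrays, runs from -6.03 to -3.76 and weighs on that mean. No direction is read from it. The lymph node list is also higher on all DIO_CR_WR arrays, by a narrow gap, and its genes Ms4a1 and Madcam1 are not well above background on every array. The skeletal muscle list is lower, as is the mesothelium list, which rests on 3 genes, 2 of them not well above background on every array. No direction is read from the mesothelium list. For macrophage and blood endothelium DIO replicate 3 lies at or within the DIO_CR_WR range or above it.

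Genes with the most similar pattern were taken by Pearson's r of scaled levels over the 6 arrays, among up to 12842 gene names detected on every array. These are descriptions over arrays that share slide and scaling, and high values are common at this number of arrays. For Lyve1 the closest were Jam3 (r = 0.999), Cnp (0.998) and Smad6 (0.998), and 259 genes exceeded 0.95. For Reln they were Ldb3 (0.998), Kremen1 (0.996) and Fdft1 (0.996), with 428 genes above 0.95. For the downstream Pdpn probe, Gipr, Tcf3 and Nhs led (0.976, 0.976 and 0.975), with 20 genes above 0.95. Prox1 was closest to Rpa1, Amd2 and Usp26 (0.994, 0.992 and 0.991), and Vegfc to Grasp, Il4i1 and Nipal3 (0.996, 0.995 and 0.988). Flt4 followed Slc22a2, Anks6 and Mmp13 (0.974, 0.971 and 0.970), Figf followed Gtf2a1, Ada and Tbc1d8 (0.984, 0.979 and 0.974), and Mmrn1 followed Dcc, Lmod1 and Rspo1 (0.991, 0.990 and 0.986).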

How the data were processed

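Gene expression was read from 6 single-colour Agilent arrays (62976 spots each, 3671 of them controls), 1 per sample. Per the file headers, the authors extracted the deposited intensity values with Agilent Feature Extraction 10.7.3.1 (10.7.1.1 per the submitters' processing notes), as background-subtracted and detrended signals on a linear scale without normalization between arrays. Other deposited columns used, per the file headers, hold flags of 0 or 1 for spots well above background, saturated or outlying. The deposited table of the whole series was not used, since the names of its 18 value columns do not match the sample titles.

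Spots flagged as outliers were set missing, log2 intensities were centred on each array's 75th percentile over non-control probes, and spots of a probe were averaged. Of 55681 probes, 38794 were well above background on at least 3 of 6 arrays, 334 of these lacked a value on an array, and 38460 were tested with limma 3.58.1 (R 4.3.3), two-sided, with Benjamini-Hochberg adjustment at 0.05. The fit was tested on simulated data. With 3 arrays a group, the number of arrays limits the precision. Intervals are 95% intervals of limma's model. Alternatives were other scalings (quantile, median, spike-in), normexp background correction (offset 50), other detection filters, 1 row per gene, the slide, the replicate number or the labelled age in the model, trended variance, and leaving out each array.

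Lymphatic genes and marker lists were chosen with earlier results of these data known. All lymphatic probes were named, and from each related list the 2 genes with the smallest p at their brightest probe, since none passed; other genes named from the lists, for their role or their values, were chosen after their values were seen. For pattern likeness the 3 genes of highest r were named, leaving out clone and predicted-gene names.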

Additional observations from a re-analysis of the deposited data

How the results depend on the processing

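Over 20 alternatives, 165 of 172 differences of the lymphatic probes kept their direction and their side of the adjusted threshold. The exceptions were Mmrn1, at -0.61 with the slide as a block and within slide 1 alone, and from -0.22 (without DIO replicate 3) and -0.12 (without DIO_CR_WR replicate 1) up to 0.45 (without DIO replicate 1) with an array left out; Figf and Vegfc, at -0.42 and -0.22 when labelled age entered the model, where ages do not overlap between groups; and the stop-codon Pdpn probe, which passed at 0.88 without DIO replicate 1. The cause was not tested. Part of the 165 was fixed in advance. The other detection filters, 1 row per gene, the replicate block and trended variance leave the difference of a probe as it was in the reported fit. They can alter only its p-values. The slide block and slide 1 alone give the same difference as each other. Lymphatic probes past the adjusted threshold ranged from 0 to 1 when each array was left out, the 1 being without DIO replicate 1. At an unadjusted p under 0.05 there were 3 in the reported fit, 5 with spike-in scaling and 1 among probes detected on all 6 arrays, where Prox1 and Reln were no longer tested, and 3 to 4 with an array left out. Of all probes, 0 passed the adjusted threshold, 6 with spike-in scaling, 46 among probes detected on all 6 arrays, and 0 to 4510 with an array left out, 4510 without DIO replicate 1. Unadjusted calls with DIO_CR_WR higher numbered 2055, 7985 with spike-in scaling, 7753 without a filter and 1193 to 3398 with an array left out. Calls with DIO_CR_WR lower numbered 7986, 5225 with quantile normalization, 1131 with spike-in scaling, 5316 on all 6 arrays, 2165 with the slide as a block, 1809 within slide 1 and 3016 to 9574 with an array left out. The labels number replicates 1 to 3 in both groups, and deviations of same-numbered arrays from their group's mean had r = 0.00, -0.13 and -0.21 across probes. With 3 arrays a group, and DIO replicates 2 and 3 on another slide, these values cannot decide whether the numbers pair samples. With a replicate block 0 lymphatic probes passed and 3 had an unadjusted p under 0.05. Of all probes, 1811 were then higher and 6996 lower by the unadjusted p. Probes near background (Prox1, Reln, Flt4) are limited by signal, and all by 3 arrays a group.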
